A study of Rattus norvegicus with 6 samples.

Results

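This section describes the compact open chromatin regions of cultured rat microglia that carried a DNase I hotspot in every library and lay in the densest neighbourhoods of the genome. A region was taken when it was under 1500 bp long, overlapped a hotspot of the authors' lists in all 6 libraries, and had 12 or more other regions of the count table starting within 25 kb of its own start. The rule found 5379 regions among 129499 in the table (4.15%), and among 66587 regions that were compact and constitutively open (8.08%). The number of neighbours and the presence of a hotspot in each library chose the regions and are given below only as a description. All 5379 regions passed the filter on low counts and entered the tests.

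DNase-seq reads the ends of fragments cut by DNase I in intact nuclei, and a region with many cuts is one where nucleosomes leave the DNA accessible. Such regions are typically promoters, enhancers and other elements bound by transcription factors. Groups of accessible elements packed close together are known around genes that define a cell's identity, and around genes with many enhancers. Microglia are the resident macrophages of the brain, and they respond to bacterial lipopolysaccharide (LPS) with an inflammatory programme. Factors released by glioma cells instead shift them towards a state that favours tumour invasion.

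Microglia came from the cerebral cortices of 1-day-old Wistar rats, each culture being pooled from 10 to 15 pups. They were shaken off after 2 weeks in medium with 10% serum and rested for 48 h. The untreated group stayed in medium, the LPS group received 100 ng/mL LPS from Salmonella enteritidis for 6 h, and the GCM group received medium conditioned for 24 h by C6 cells, a rat glioma line, for 6 h. Each group had 2 libraries from separate cultures, and the same untreated libraries served both stimuli. Pooling and cell culture mean that a library describes a culture and not an animal. A higher count in a region can come from more cells in which it is open or from more cutting per cell, and these cannot be told apart here. Regions were not assigned to genes, so the labelled cell type was not checked against marker genes.

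Library totals ranged from 60.1 M to 120.5 M reads (M for mega), and counts inside the 129499 regions from 7.14 M to 12.4 M. The median clustered region held 60 to 115 counts per library. Levels are given in CPM, each library's counts in regions being brought to one common total and scaled by the trimmed mean of M-values (TMM). Differences between the untreated libraries over single clustered regions were no larger than sampling noise, with a chi-square of 0.991 per degree of freedom, against 1.35 for the LPS and 1.26 for the GCM libraries. Summed over clusters, however, the untreated libraries did differ by more than sampling noise (1.49 per degree of freedom, against 2.67 and 1.82), and they were counted as 2 samples.

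The LPS libraries stood apart from each other in these neighbourhoods, and the other way round in the sparsest ones. Clustered regions held 5.48% and 5.40% of the counts in regions in the untreated libraries, 5.13% in LPS replicate 1 and 5.84% in LPS replicate 2, and 5.63% and 5.54% in the GCM libraries. Both the lowest and the highest share belonged to LPS, and the other 4 libraries lay between them. The means were 5.44% ± 0.0588 (SD, n = 2) untreated, 5.49% ± 0.495 with LPS and 5.58% ± 0.0587 with GCM. An exact two-sided permutation test gave p = 1.0 for LPS against untreated and p = 0.33 for GCM against untreated, the smallest p that 2 against 2 libraries allow. The gap between the LPS libraries followed the number of neighbours. Over compact constitutive regions with no other region within 25 kb, the median log2 difference of LPS replicate 2 from replicate 1 was -0.15, and it rose to 0.24 over those with 16 or more. The same quantity stayed between -0.03 and 0.03 for the untreated and between -0.06 and 0.00 for the GCM libraries. The counts of calls with LPS below are therefore also given without each of these libraries.

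**Figure D1:**
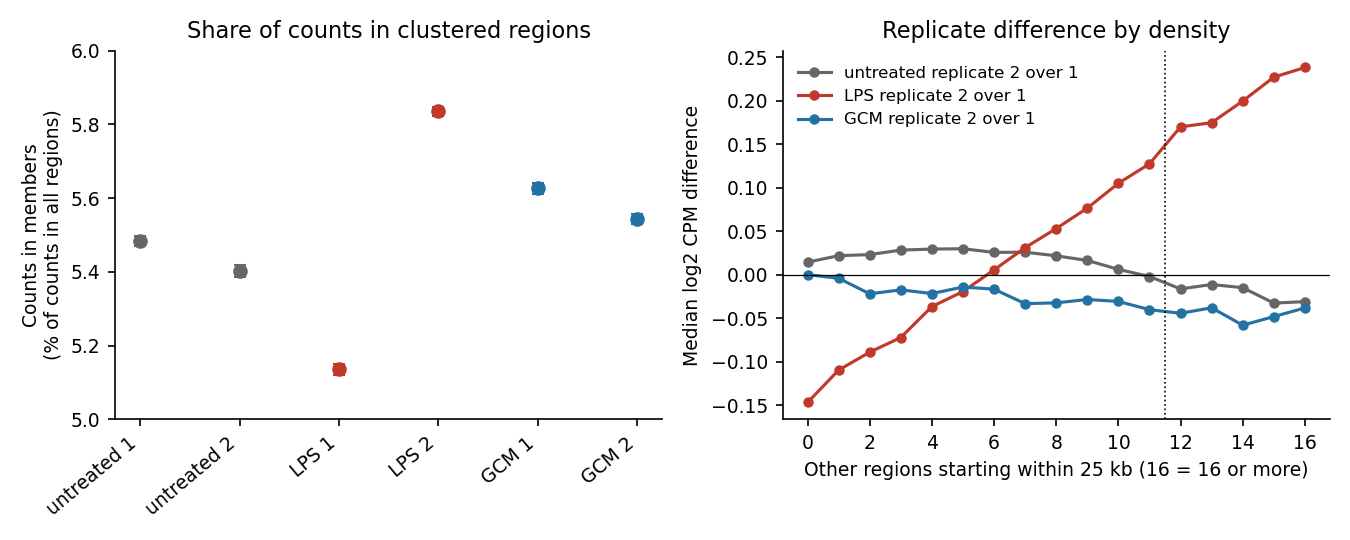
Left, the share of region counts (%) held by the 5379 clustered regions in each library, with 95% Wilson intervals that cover counting error only and an axis starting at 5%. Right, the median log2 CPM difference between the libraries of a group against the number of other regions within 25 kb, over compact constitutive regions; the dotted line marks the rule's threshold, and the LPS line climbs from -0.15 to 0.24.

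The clustered regions were small and ordinary in level. Their median length was 512 bp (interquartile range 389 to 700 bp), and their median level over all libraries was 8.75 CPM, with the 5th and 95th percentiles at 4.38 and 21.4 CPM. Per length, the median was 16.7 CPM per kb (interquartile range 14.5 to 19.6), beside 16.3 over all compact constitutive regions, 15.4 over those with at most 2 neighbours and 13.3 over the whole table. Regions just inside the threshold, with exactly 12 neighbours (2007 regions), had a median of 16.6 CPM per kb, and those just outside, with 11 (2748 regions), had 16.8. A further 104 constitutive regions with 12 or more neighbours were left out because they were 1500 bp or longer.

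Chained together where starts lay at most 25 kb apart, the regions formed 1147 clusters on 21 chromosomes. Of these, 273 held a single such region, 400 held 2 to 4, and 474 held 5 or more and together 3982 of the regions. Clusters of 5 or more spanned a median of 31.3 kb, and the median distance between successive members was 3436 bp. Chromosome 10 carried the most for its size in the table (541 regions, 6.14% of its rows), and chromosome X the fewest (31 regions, 1.54%). The largest cluster, chr5:154348907-154501466 (coordinates of build rn5), packed 35 clustered regions into 152.6 kb. The next were chr1:81437545-81523642 with 25, chr20:6856004-6997875 and chr8:48122437-48230674 with 24 each, and chr10:70387973-70513109 with 23.

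Regions of a cluster did not share a level. In clusters of 5 or more, the highest member exceeded the lowest by a median of 1.8-fold in CPM per kb (interquartile range 1.59 to 2.03), and by 5.90-fold at most. The SD of log2 CPM per kb was 0.31 within clusters of 3 or more and 0.32 over all of their members. Across pairs of members less than 2 kb apart (1363 pairs, which share libraries and local depth), the levels correlated with r = 0.08, a weak relation.

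The highest levels per length came from very few places. chr17:91086758-91086817, only 60 bp long, reached 60.6 CPM per kb, although its 2.79 to 4.12 CPM rested on few counts. In the cluster chr1:56899971-56968573, the region chr1:56946170-56947555 had 72.2 and 102 CPM untreated, 69.4 and 64.3 with LPS, and 74.2 and 70.5 with GCM. Untreated replicate 2 alone was high, and the other 5 libraries lay between 64.3 and 74.2. The same library was the highest of the 6 in each of the 17 members of that cluster, for example 35.0 CPM against 21.5 to 24.6 in the others at chr1:56953120-56953656. It was also the highest at chrX:18996737-18997424, with 40.5 CPM against 22.9 to 30.0. In edgeR's test 3 members of the chromosome 1 cluster were called decreased with LPS (log2 fold changes -0.44 to -0.42). Without untreated replicate 2 these became -0.19 to -0.17 and none of the 3 was called (adjusted p 0.668 to 0.696), and none was called without either LPS library.

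The first comparison asked how LPS moved regions that were open before and after. In edgeR's quasi-likelihood test with Benjamini-Hochberg adjustment over all 126284 regions tested, 227 clustered regions rose and 79 fell with LPS at adjusted p under 0.05. That is 5.69% of them, against 9.85% of all regions tested and 6.57% of compact constitutive regions. For increases alone the share was 4.22% against 6.71% of all regions tested, and for decreases 1.47% against 3.14%. Both shares lay below the background. Among all compact constitutive regions 3.79% rose and 2.78% fell, so that increases in the clustered regions lay above that set and decreases below it. These differences were not tested. Changes were moderate: the called increases had a median log2 fold change of 0.62 and the called decreases of -0.57, and 6 of 306 exceeded a fold change of 2. The median over all clustered regions was 0.02, against -0.00 over all regions. The LPS and untreated libraries did not overlap in 305 of the 306 called regions, the exception being 1 increase. Regions that pass the test with 2 libraries per group nearly always separate, and the share over all regions was not computed. This count therefore adds no support to the calls.

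Both counts moved strongly with single libraries. Without LPS replicate 1, edgeR called 289 increases and 30 decreases, and without LPS replicate 2 it called 73 and 113, so that the balance turned. The median over the clustered regions went with it, to 0.10 without replicate 1 and to -0.09 without replicate 2. Without untreated replicate 1 there were 63 increases and 22 decreases, and without untreated replicate 2 there were 68 and 9. When each library was also centred at each number of neighbours, an alternative chosen after seeing the data, 180 rose and 181 fell. With whole-library totals as the scale, 77 rose and 2 fell, and the median of all regions itself moved to 0.09 and that of the clustered ones to 0.11. DESeq2 called 11 increases and 0 decreases, where edgeR had 331 decreases at unadjusted p under 0.05. The excess of increases over decreases in clustered regions therefore depended on the LPS library and on the scaling, and it reversed without LPS replicate 2.

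With all libraries, the direction of the calls followed density. Among compact constitutive regions with no neighbour, 1.85% rose and 5.15% fell with LPS. At exactly 12 neighbours 4.04% rose and 1.79% fell, and at 16 or more 5.06% rose and 0.791% fell. The gap between the LPS libraries changed along the same axis. Without LPS replicate 1, 0.601% rose and 5.15% fell at no neighbour, and 8.07% rose and 0.475% fell at 16 or more. Without LPS replicate 2 the order turned, with 2.10% rising and 1.5% falling at no neighbour, and 1.27% rising and 2.22% falling at 16 or more.

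**Figure D2:**
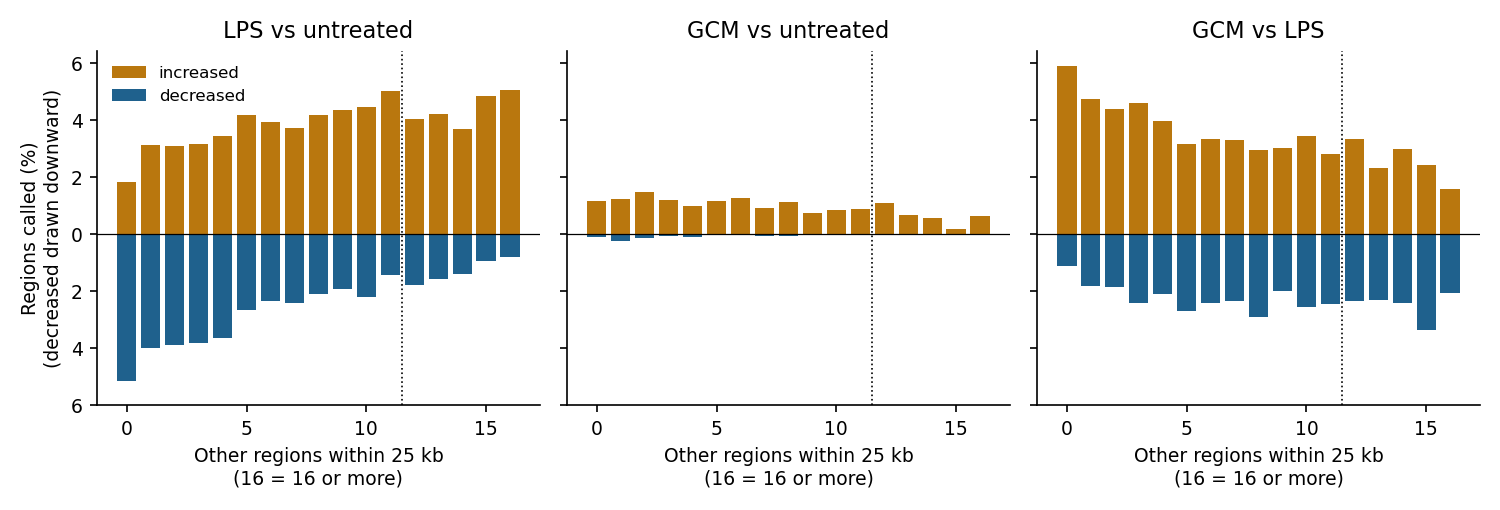
The percentage of compact constitutive regions called increased (upward) and decreased (downward) by edgeR at adjusted p under 0.05, against the number of other regions within 25 kb, for each comparison; the dotted line marks the threshold of 12. With LPS and all 6 libraries, decreases thinned from 5.15% to 0.791% towards dense neighbourhoods, an order that turned without LPS replicate 2, and GCM calls were few at every density.

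Single regions stood out clearly against this background. The smallest p with LPS belonged to chr3:128082920-128083557, 638 bp long, with 6.09 and 7.57 CPM untreated, 15.1 and 14.1 with LPS, and 6.27 and 5.49 with GCM. Both LPS libraries lay far above the untreated and the GCM libraries, with no overlap. Its log2 fold change with LPS was 1.12 ± 0.15 (SE, edgeR adjusted p = 3.5e-06), and GCM differed from LPS by -1.33 ± 0.15 (edgeR adjusted p = 1.9e-07), the largest difference between the stimuli in either direction among the clustered regions.

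Further regions showed the same form. chr1:16052881-16053461 had 6.54 and 6.45 CPM untreated, 14.3 and 13.4 with LPS, and 6.64 and 6.96 with GCM (LPS log2 fold change 1.09 ± 0.15, edgeR adjusted p = 5.6e-06). chr3:13524013-13524589 had 8.42 and 8.41 CPM untreated, 14.02 and 18.2 with LPS, and 7.74 and 7.78 with GCM (0.95 ± 0.15, edgeR adjusted p = 2.8e-05). In both, the GCM libraries lay close to the untreated level.

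At chr17:24815822-24816783 the untreated libraries had 9.04 and 9.53 CPM, the LPS libraries 16.7 and 19.5, and the GCM libraries 10.2 and 10.7. The shortest of the leading increases, chr10:70446136-70446430 with 295 bp, went from 3.67 and 3.50 CPM untreated to 8.13 and 7.75 with LPS, and had 5.04 and 3.69 with GCM. Over the 10 increases with the smallest p, the fold change with LPS ran from 1.84 to 2.19, and 9 of the 10 were also lower with GCM than with LPS in edgeR's test. These were chosen for their p, so their agreement is a description. All 10 were called without any one library and under each scaling tried, and 9 of them by DESeq2.

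Decreases with LPS were shallower. chr10:49332441-49332948 had 9.94 and 12.2 CPM untreated, 5.99 and 5.63 with LPS, and 8.60 and 6.88 with GCM, giving a log2 fold change of -0.90 ± 0.17 with LPS (edgeR adjusted p = 0.00031). The GCM libraries lay between the other groups there. chr3:15014522-15015358 went from 18.9 and 18.4 CPM to 10.9 and 12.6 with LPS and had 16.2 and 16.7 with GCM (-0.66 ± 0.14, edgeR adjusted p = 0.0010). chr13:104223241-104223623 went from 10.7 and 11.1 CPM to 5.38 and 6.85 with LPS, while GCM left 13.6 and 10.4.

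Over the 10 decreases with the smallest p, log2 fold changes with LPS ran from -0.90 to -0.55. In 6 of them GCM was higher than LPS in edgeR's test. They were less firm than the increases: 4 of the 10 were called without untreated replicate 2, 8 without untreated replicate 1 and 8 without LPS replicate 2, and 2 with whole-library totals. DESeq2 called none of them.

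**Figure D3:**
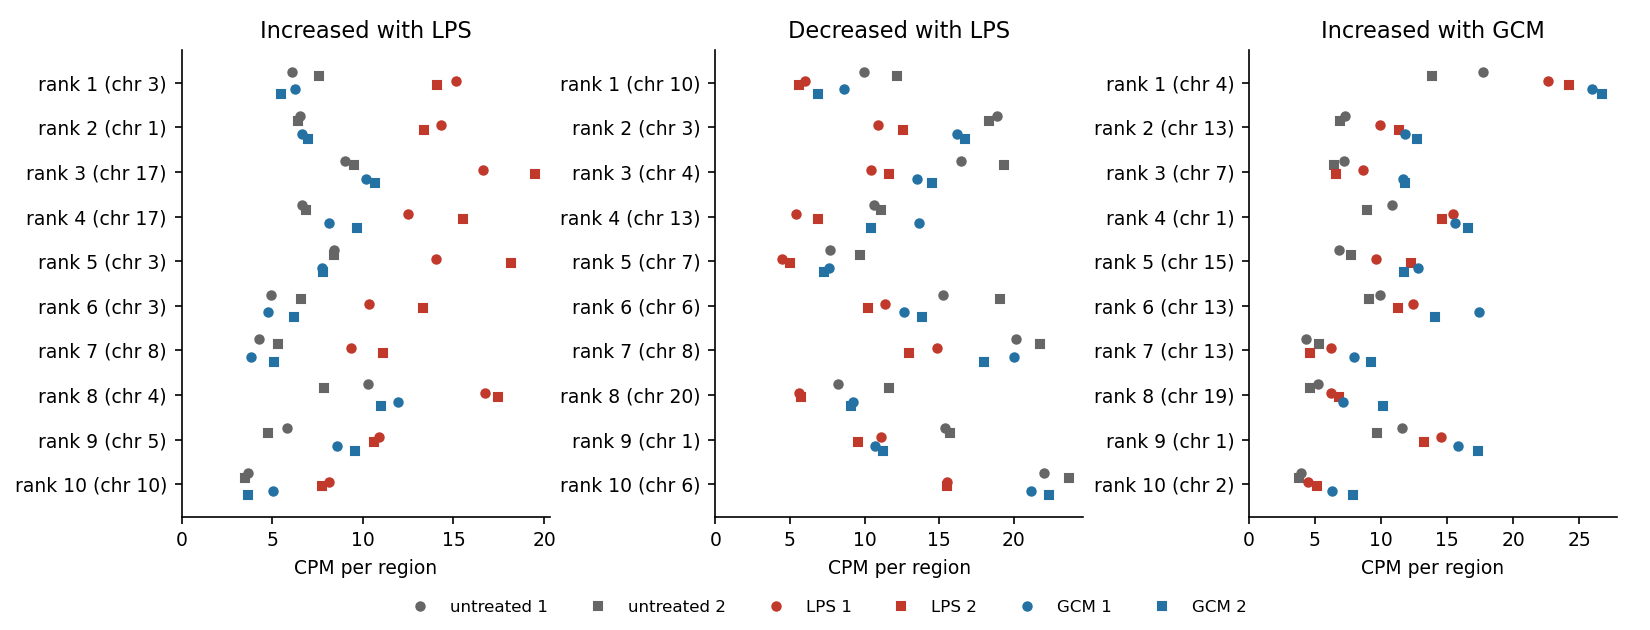
CPM per region in each of the 6 libraries (circles replicate 1, squares replicate 2) for the 10 clustered regions with the smallest p among increases with LPS, decreases with LPS and increases with GCM, ordered by p from the top. In the left panel the LPS points lie right of the untreated points in all 10 regions, and in 9 of them GCM was called lower than LPS.

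With GCM the clustered regions changed little. edgeR called 41 increases and 0 decreases (0.762%), against 1.57% of all regions tested, 1.34% for increases and 0.231% for decreases. Among all compact constitutive regions, which also carry a hotspot in every library, the share was 1.13% (1.07% and 0.0616%). The differences between these shares were not tested. At unadjusted p under 0.05 there were 476 higher and 103 lower regions, and the median log2 fold change was 0.04. DESeq2 called none in either direction, and with whole-library totals edgeR called none. The 41 calls also disappeared without untreated replicate 1, without untreated replicate 2 or without GCM replicate 2, while leaving out an LPS library gave 67 (replicate 1) and 68 (replicate 2) calls. Fitting the 4 libraries alone gave 70 increases and 4 decreases.

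Of the 41, 53.7% had hotspots covering at least 50% of their length in every library, beside 86.7% of the clustered regions not called. Called regions had the lower share in the other comparisons as well. With LPS it was 75.3% of increases and 78.5% of decreases, beside 87.1% of regions not called. For GCM against LPS it was 81.0% (higher) and 77.7% (lower), beside 86.8%. Restricting the rule to regions covered in that way left 22 increases with GCM (0.473% of 4650 regions). In the authors' deposited tables, which come from their own fit, 53 clustered regions were higher and 1 was lower with GCM at a false discovery rate under 0.05, and 208 were higher and 86 lower with LPS.

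The smallest p with GCM belonged to chr4:22014395-22015655, 1261 bp long, with 17.7 and 13.9 CPM untreated, 22.6 and 24.2 with LPS, and 25.9 and 26.7 with GCM. Both stimuli lay above both untreated libraries. The log2 fold change was 0.71 ± 0.14 with GCM (edgeR adjusted p = 0.0041) and 0.55 ± 0.14 with LPS (edgeR adjusted p = 0.0073). chr13:60370028-60370784 had 7.25 and 6.87 CPM untreated, 9.95 and 11.3 with LPS, and 11.8 and 12.7 with GCM, a rise of 0.79 ± 0.16 with GCM (edgeR adjusted p = 0.0053).

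A different form appeared at chr7:37500911-37501495, where the untreated libraries had 7.16 and 6.45 CPM, the LPS libraries 8.63 and 6.61, and the GCM libraries 11.7 and 11.8. GCM stood above both other groups, and its log2 difference from LPS was 0.64 ± 0.15 (edgeR adjusted p = 0.0049). chr13:72172517-72172991 was alike, with 4.30 and 5.33 CPM untreated, 6.20 and 4.65 with LPS, and 7.99 and 9.26 with GCM (0.71 ± 0.18 against LPS, edgeR adjusted p = 0.0075). Across the 10 GCM increases with the smallest p, fold changes with GCM ran from 1.55 to 1.86; 4 of the 10 also rose with LPS, and 3 were higher with GCM than with LPS.

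Some regions were called with both stimuli. There were 15, a set looked at after their values were seen, and all 15 increased with LPS and with GCM. The comparisons share the untreated libraries, so the values are given side by side and the overlap is not read as a result. Log2 fold changes ran from 0.47 to 0.99 with LPS and from 0.55 to 0.80 with GCM. The direct difference between GCM and LPS ran from -0.22 to 0.20, with edgeR adjusted p from 0.395 to 0.943, which does not show that the stimuli acted alike. At chr5:125894810-125895257, for example, the untreated libraries had 5.82 and 4.76 CPM, the LPS libraries 10.9 and 10.6, and the GCM libraries 8.60 and 9.59. Without shared libraries, the change in LPS replicate 1 from untreated replicate 1 correlated with that in GCM replicate 2 from untreated replicate 2 by r = 0.201 over the 5379 regions, and the other way round by 0.141. Among compact constitutive regions with fewer neighbours (61208 regions) these values were 0.280 and 0.216, all descriptions.

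Set directly against LPS, GCM was higher in 147 clustered regions and lower in 130 (5.15%, against 8.58% of all regions tested, 3.75% higher and 4.84% lower). Among all compact constitutive regions the share was 5.92%, with 3.61% higher and 2.31% lower. The counts were 67 and 215 without LPS replicate 1, 134 and 36 without LPS replicate 2. Leaving out a GCM library gave 84 and 79 (replicate 1) or 41 and 31 (replicate 2). DESeq2 called 4 and 12, and whole-library totals gave 7 and 44. The balance of the directions again depended on which LPS library was used.

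The region with the smallest p for a higher level with GCM was chr1:257976281-257976801, with 7.97 and 9.11 CPM untreated, 4.77 and 6.45 with LPS, and 11.9 and 11.1 with GCM. The stimuli lay on opposite sides of the untreated libraries. The difference between them was 1.00 ± 0.16 (edgeR adjusted p = 4.9e-05), and the fall with LPS passed the test (-0.57 ± 0.18, edgeR adjusted p = 0.0345) while the log2 difference with GCM, 0.44 ± 0.16, did not (edgeR adjusted p = 0.146). chr19:49444673-49445617 had the same order, with 16.7 and 16.3 CPM untreated, 12.8 and 11.3 with LPS, and 22.0 and 20.2 with GCM. The 5 regions with the smallest p in this direction were all called decreased with LPS, and none was called with GCM against untreated. The 5 in the other direction were all called increased with LPS, again none with GCM.

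The joint behaviour of a cluster's members was the next question. Regions called with LPS lay in 247 of the 1147 clusters, and 201 of these held exactly 1. There were 31 clusters with 2 or more increases and 8 with 3 or more, and the most was 4. Decreases reached 2 or more in 4 clusters. With GCM, called regions lay in 37 clusters, 34 of which held 1. As 273 clusters have 1 member and the median is 3, the number that a cluster can hold is limited by its size. The counts to be expected from independent calls at these sizes were not computed, so the numbers do not measure joint response. Without LPS replicate 1, regions called with LPS lay in 250 clusters, and 53 held 2 or more increases and 0 held 2 or more decreases. Without LPS replicate 2 they lay in 165, and 6 held 2 or more increases and 8 held 2 or more decreases.

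Called regions of one cluster could go opposite ways. With LPS, 13 clusters held at least 1 increase and 1 decrease, with the closest opposite pair 1.469 to 30.8 kb apart (median 11.3 kb). There was 1 such cluster without LPS replicate 1 and there were 6 without LPS replicate 2. The pairs named here were picked for their distance after their values were seen. The closest was on chromosome 9: chr9:65360126-65361087 had 13.7 and 10.9 CPM untreated, 15.0 and 22.8 with LPS, and 13.0 and 13.0 with GCM, a rise of 0.61 ± 0.15 with LPS (edgeR adjusted p = 0.0069). Its neighbour chr9:65361595-65362276 had 13.1 and 11.1 CPM untreated, 7.11 and 9.30 with LPS, and 13.6 and 12.6 with GCM, a log2 change of -0.56 ± 0.16 (edgeR adjusted p = 0.016). The neighbours were called in opposite directions with LPS, and both GCM libraries were near the untreated level at each. At the region that rose, LPS replicate 1 (15.0 CPM) lay close to untreated replicate 1 (13.7 CPM).

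For GCM against LPS, 21 clusters held regions of both directions, 10 without LPS replicate 1 and 4 without LPS replicate 2. On chromosome 2, chr2:209431048-209431668 and chr2:209431986-209432388 start 0.938 kb apart. The former had 13.3 and 13.5 CPM untreated, 9.55 and 10.4 with LPS, and 12.9 and 14.2 with GCM. The latter had 7.52 and 7.15 CPM untreated, 11.6 and 11.7 with LPS, and 8.48 and 7.54 with GCM. The log2 differences between GCM and LPS were 0.45 ± 0.14 (edgeR adjusted p = 0.036) and -0.55 ± 0.15 (edgeR adjusted p = 0.013). Another such pair, 2.558 kb apart on chromosome 17, was chr17:54230301-54230920, which rose with LPS from 6.63 and 6.87 to 12.5 and 15.5 CPM, and chr17:54232859-54233252, where GCM had 9.71 and 8.60 CPM against 5.69 and 4.32 with LPS.

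When the counts of each cluster's members were summed, few sums passed the test. edgeR, fitted over 30112 clusters and 50 kb bins of the other regions, called 37 sums increased and 10 decreased with LPS (4.10% of clusters, against 9.16% of all sums tested, 6.02% increased and 3.14% decreased). With GCM it called 31 increased and 1 decreased (2.79% against 4.85%, 4.07% increased and 0.774% decreased), and for GCM against LPS 16 higher and 11 lower (2.35% against 6.43%, 3.41% higher and 3.02% lower). Clusters of 1 member, whose sum is a single region, gave 10 of the 47 sums called with LPS. They gave 3 of 32 with GCM and 14 of 27 for GCM against LPS. Clusters of 5 or more gave 14, 15 and 4. Of all 1147 clusters, 273 have 1 member and 474 have 5 or more. The counts of called sums rested on single libraries as well. For LPS they were 92 increased and 3 decreased without LPS replicate 1, 9 and 9 without LPS replicate 2, 10 and 4 without untreated replicate 1, and 7 and 0 without untreated replicate 2. For GCM the total was 2 without untreated replicate 1, 2 without untreated replicate 2, 21 without GCM replicate 1, 1 without GCM replicate 2, and 50 without LPS replicate 1 or 2. For GCM against LPS, 8 were higher and 28 lower without LPS replicate 1, and 13 and 3 without LPS replicate 2, so that the balance turned again. Leaving out a GCM library gave 10 and 6 (replicate 1) or 5 and 5 (replicate 2). The sums of the 10 clusters with the most members were not called in any comparison, with log2 fold changes from -0.06 to 0.13 with LPS and from -0.04 to 0.20 with GCM.

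Large clusters held changes that their sums did not show. The cluster chr10:70387973-70513109 had 4 of 23 members called increased with LPS, the most of any cluster together with chr3:15114231-15151858. Member log2 fold changes there ran from -0.43 to 1.13, and the sum changed by 0.12 (edgeR adjusted p = 0.515). In it, chr10:70446136-70446430 and chr10:70447313-70448033 both rose, the latter from 7.88 and 6.31 to 10.2 and 13.1 CPM. At chr10:70502449-70503317 the LPS libraries disagreed, with 8.84 and 15.8 CPM beside 16.9 and 17.1 untreated, and no change was called.

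In chr3:15114231-15151858, 4 of 10 members rose with LPS, and in those 4 the GCM level was called below the LPS level. The leading member, chr3:15130217-15130654, had 5.55 and 5.47 CPM untreated, 8.84 and 10.2 with LPS, and 4.92 and 5.98 with GCM (LPS log2 fold change 0.79 ± 0.17, edgeR adjusted p = 0.0018). Between the risers lay members such as chr3:15126448-15127153, with 13.5 and 14.4 CPM untreated, 10.9 and 17.9 with LPS, and 14.5 and 14.7 with GCM. The sum was not called (0.22, edgeR adjusted p = 0.161).

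The 12-member cluster chr1:257939305-257984376 held responses of several kinds. It had 3 increases and 1 decrease with LPS and 2 increases with GCM. chr1:257943748-257944773 went from 9.58 and 8.83 CPM untreated to 12.3 and 13.9 with LPS and to 14.1 and 13.3 with GCM, and chr1:257983911-257984376 from 4.75 and 4.91 to 7.01 and 7.18 and to 8.11 and 7.78. Both rose with each stimulus. Between them lay chr1:257976281-257976801, described above, which fell with LPS. The sum of the cluster changed by 0.19 with LPS (edgeR adjusted p = 0.209) and 0.26 with GCM (edgeR adjusted p = 0.109).

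**Figure D4:**
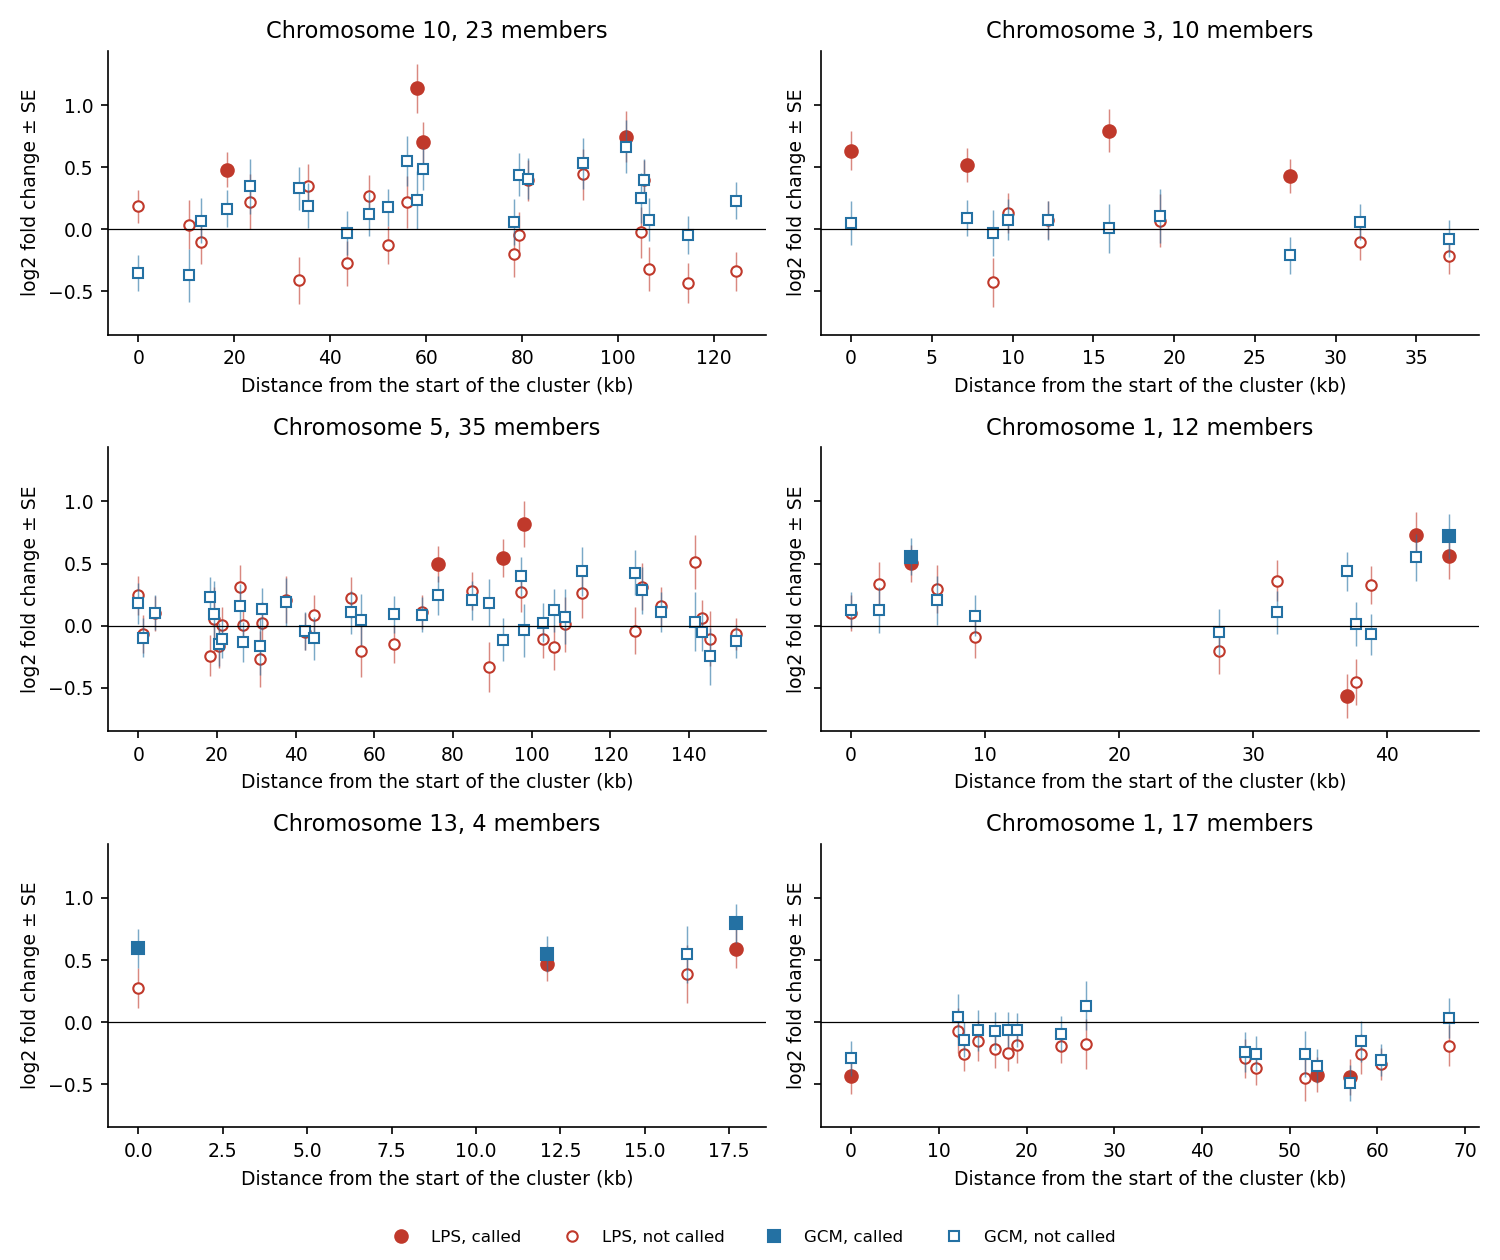
Log2 fold change ± SE (edgeR) of each member with LPS (circles) and GCM (squares) against distance in kb from the cluster's start, for 6 clusters among those with the most called members; filled symbols are called at adjusted p under 0.05. Called members stand beside members near 0 in the 4 clusters of the upper rows, and only the 4-member cluster of chromosome 13 lies above 0 throughout.

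The signs of a cluster's members were also counted. All members had the same sign in 19 of the 474 clusters of 5 or more with LPS and in 41 with GCM, whether called or not. The number to be expected from independent signs was not computed, so these counts are not read as joint movement. Sums of clusters of 5 or more were called in 14 cases with LPS and in 15 with GCM. In chrX:18985043-19001523 the log2 differences of all 10 members were below 0 with GCM and with LPS, none was called, and the sum had 186 and 262 CPM untreated, 149 and 203 with LPS, and 138 and 192 with GCM. Its groups overlapped, with replicate 2 the higher in each. The cluster chr13:60352327-60370784 has 4 members in 18.5 kb, and 3 of them rose with GCM and 2 with LPS. Its sum rose by 0.64 with GCM (edgeR adjusted p = 0.00046) and by 0.45 with LPS (edgeR adjusted p = 0.0048). Its first member, chr13:60352327-60352867, had 7.70 and 7.43 CPM untreated, 8.33 and 9.87 with LPS, and 11.9 and 11.1 with GCM. Its uncalled member, chr13:60368589-60368923, had 4.30 and 4.48 CPM untreated, 3.66 and 7.43 with LPS, and 6.14 and 6.55 with GCM, the LPS libraries lying on either side of the untreated.

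Sums were ranked by p only among clusters of 3 or more members. With LPS the smallest p among these was that of chr6:141692283-141710843 (4 members, 0.51, edgeR adjusted p = 0.00062). Next came chr3:128079284-128125186 (5 members, 0.44, edgeR adjusted p = 0.0026), which holds the region with the smallest p. In it 3 members rose, while chr3:128124815-128125186 had 6.18 and 7.71 CPM untreated, 4.98 and 5.06 with LPS, and 7.50 and 8.36 with GCM. That member was higher with GCM than with LPS (0.67 ± 0.18, edgeR adjusted p = 0.012), opposite to chr3:128082920-128083557 of the same cluster. Among decreases with LPS in clusters of that size, the sum of chr8:68748611-68763375 had the smallest p (3 members, -0.44, edgeR adjusted p = 0.0032). Its GCM value was -0.02. The 1 sum called decreased with GCM was that of chr6:111971440-111975653 (-0.30, edgeR adjusted p = 0.046). Of the 30 results for clusters named by the p of their sum, 25 were called. Leaving out an untreated library gave 12 (replicate 1) or 9 (replicate 2) calls, leaving out an LPS library 18 or 10, and leaving out GCM replicate 2 gave 14. DESeq2 called 2, and whole-library totals gave 0.

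How alike neighbouring members responded was measured with no library in common, setting a region's change in replicate 1 of both groups against its neighbour's change in replicate 2. A region compared with itself in this way gave r = 0.365 for LPS and 0.309 for GCM over 5379 regions. For neighbours under 2 kb apart (1363 pairs), r was -0.10 for LPS and 0.17 for GCM. At 10 to 25 kb (7135 pairs) it was -0.02 and 0.11. Over compact constitutive regions with fewer neighbours, pairs under 2 kb gave 0.04 and 0.22 (7968 pairs). The difference between the replicates of one group, which has to use the same libraries in both regions, correlated between neighbours under 2 kb apart with r = 0.224 untreated, 0.342 with LPS and 0.241 with GCM. The latter values hold noise that neighbours share within a library, and the former use no library in both regions, so they are not set against each other. The r for LPS crosses the 2 LPS libraries, whose gap followed density. Over clustered regions their median log2 differences from the same-numbered untreated library were -0.09 (replicate 1) and 0.12 (replicate 2). The part of this gap in the r of -0.10 was not tested, so that r is not read as the response of neighbours to LPS. These r values describe pairs that share chromosomal position, and pairs of one cluster are not independent.

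**Figure D5:**
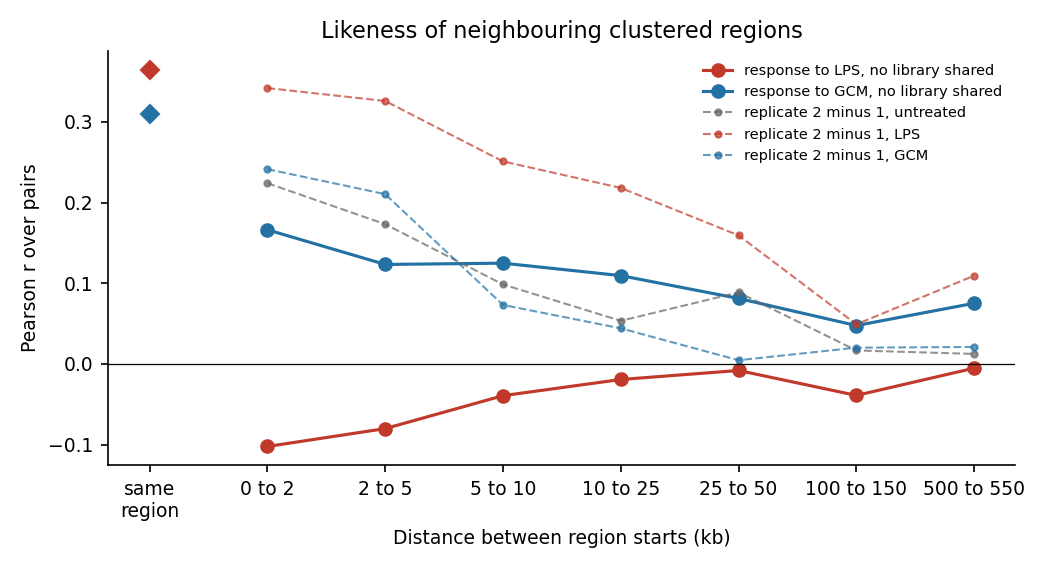
Pearson r over pairs of clustered regions against the distance between their starts in kb. Solid lines give the response to LPS or GCM with no library shared between the regions (diamonds: the same region). Dashed lines give the difference of replicate 2 from replicate 1 in each group, with the same libraries in both regions. At under 2 kb the solid LPS line is at -0.10 and the LPS replicate difference at 0.34. The solid LPS line crosses LPS replicates 1 and 2, whose gap followed density.

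Between the first and last members of the clusters lay 2816 other regions without a hotspot in 1 or more lists, of which 2696 were tested. These were fainter, with a median of 3.36 CPM against 8.75 for the clustered constitutive regions. With LPS, the share called was 14.5% (12.4% increased, 2.04% decreased), beside 5.69% of the constitutive regions they surround. Over all regions tested it was 9.85% (6.71% and 3.14%), and these include the compact constitutive regions, at 6.57%. A share over the regions elsewhere that lack a hotspot in 1 or more lists was not computed. In counts, edgeR called 335 of the 2696 increased and 55 decreased. Without LPS replicate 1 these counts were 289 and 18, and without LPS replicate 2 they were 150 and 68. They were set apart by hotspots called in these same libraries, and the shares are given without a test.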

How the data were processed

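DNase-seq libraries were made from cultured rat microglia, 2 per group. Per the submitters' processing notes the build was rn5 and the authors' tools were edgeR, DiffBind, Picard 1.95, SAMtools, Bowtie 1.1.2 and cutadapt 1.8.3; order and settings are not given in the sources used here. The deposited table holds raw counts per region and library. The deposited hotspot lists carry a score per hotspot and, per the file headers and names, a false discovery rate of 0.01; an overlap of 1 bp counted. From the authors' tables, their log2 fold changes and adjusted p-value columns (false discovery rates) were used. Per the authors' tables, the deposited CPM values there (12 columns) were scaled by the authors to the whole library before deposit. How the authors computed these CPM values is not given in the sources used here. Dividing raw counts by the per-library CPM values gave the whole-library totals, and no CPM level in the text was taken from them.

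Counts were scaled by TMM and fitted with edgeR 4.0.16 (R 4.3.3; glmQLFit, glmQLFTest) over all 6 libraries and every region that passed filterByExpr with a minimum count of 10. Calls were made at a Benjamini-Hochberg adjusted p under 0.05. Clusters chained members with starts at most 25 kb apart, and their sums were fitted with 50 kb bins of the remaining regions. Log2 differences of CPM used a pseudocount of 0.5. The fit was also run on simulated counts, drawn independently for each region or sum. These lacked the gap between the LPS libraries that followed density, so the run does not bear on calls that depend on that gap. The alternatives were DESeq2 1.42.0, its size factors, whole-library totals, other count filters, only the libraries compared, a replicate block, each library left out, and other limits of the rule. The clustered regions and lists were chosen with earlier results of these data known. Regions were named by smallest p (10 per direction with LPS and with GCM, 5 for GCM against LPS) or by highest CPM per kb. Clusters were named by number of members, by smallest p of the sum among clusters of 3 or more members, or by most members called. Intervals cover counting error only, as reads carry no molecular identifiers.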

Additional observations from a re-analysis of the deposited data

How the results depend on the processing

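The calls depended on single libraries and on the scale. Called clustered regions numbered 306 with LPS, 41 with GCM and 277 for GCM against LPS. With one library left out, they ranged from 77 to 319, from 0 to 68 and from 72 to 282, and called cluster sums (47, 32 and 27) from 7 to 95, from 1 to 50 and from 10 to 36. Whole-library totals gave 79, 0 and 51 regions and 5, 0 and 5 sums, and DESeq2 gave 11, 0 and 16 regions and 4, 1 and 3 sums. Only the 4 libraries compared gave 74 regions and 50 sums with GCM. Other limits of the rule changed the number of regions, so shares are given beside the main 5.69%, 0.762% and 5.15%. With 8 or more neighbours, 1382, 201 and 1208 of 22190 regions were called (6.23%, 0.906% and 5.44%). With 16 or more, 37, 4 and 23 of 632 were called (5.85%, 0.633% and 3.64%). Called sums were 174, 115 and 125 of 3849 clusters at 8 or more, and 5, 5 and 1 of 173 at 16 or more. Requiring 50% hotspot cover gave 22 of 4650 regions with GCM (0.473%), and a gap of at most 10 kb gave 77, 49 and 48 of 1762 sums. The share of region counts in clustered regions, 5.50% over the libraries, was 23.9% at 8 or more neighbours, 0.599% at 16 or more, and 0.648% of whole-library totals. The cause of these shifts was not tested, apart from the changed number of regions or libraries. Among the 65 named region results and the 30 results for clusters named by the p of their sum, none changed direction. Other regions and clusters given above are not in these counts. Of 65 named region results, 65 passed with other count filters and with DESeq2's size factors, 18 with DESeq2, 19 with whole-library totals, 32 without untreated replicate 1 and 26 without untreated replicate 2.

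The replicate numbers shared by the groups were not stated to mark a common culture or day. Deviations of same-numbered libraries correlated at -0.10, 0.18 and -0.08 over clustered regions for the 3 pairs of groups. A replicate block gave 72 regions and 49 sums with GCM, and all 65 named region results passed with it.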
